A study of Mus musculus with 238 samples.

Results

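The genes described are 6 genes of glycinergic transmission: Slc6a5, Slc6a9, Glra1, Glra2, Glra3 and Glrb. They were chosen by name, and all 6 were found among the 21076 gene rows of the count table. RNA from bulk tissue of C57BL/6JN mice aged 19 months was sequenced in 229 libraries of 15 brain regions and 9 libraries of liver. In the diet cohort, which was female, 5 mice were dietary restricted (aDR; the label is DR for their liver) and 4 mice were fed freely (AL). In the plasma cohort, which was male, 3 mice received plasma of young mice (YMP) and 4 received PBS, both injected behind the eye. Each region had 4 to 5 aDR, 3 to 4 AL, 3 to 4 PBS and 3 YMP libraries, except that corpus callosum had 2 YMP libraries. Sex and cohort cannot be told apart, and every mouse of both cohorts was aged, so AL and PBS libraries are aged controls rather than young ones. The values are bulk levels, in which fewer cells of a type and less RNA per cell cannot be told apart.

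Glycine is an inhibitory transmitter of brainstem and spinal cord. Neurons that release it recover it through GlyT2, the plasma membrane transporter encoded by Slc6a5, and load it into vesicles through the transporter they share with GABA neurons, encoded by Slc32a1. GlyT1, encoded by Slc6a9 and found mainly on astrocytes, clears glycine from the synapse and also sets its level near NMDA receptors, for which glycine is a co-agonist. The receptor is a chloride channel built from alpha subunits (Glra1, Glra2, Glra3) and the beta subunit (Glrb), which binds gephyrin and so holds the receptor at the synapse. Glra1 is the alpha subunit known from adult brainstem and spinal cord, and Glra2 the one known from the developing nervous system.

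In the GENCODE M21 annotation of GRCm38, all 6 are protein-coding genes. Slc6a5 lies at chr7:49910146-49963856 on the plus strand and Slc6a9 at chr4:117834506-117875198 on the plus strand. Glra1 lies at chr11:55514238-55608198 on the minus strand, Glra2 at chrX:165129017-165327393 on the minus strand, Glra3 at chr8:55940460-56130070 on the plus strand and Glrb at chr3:80843599-80913660 on the minus strand. The libraries keep no strand, so reads of overlapping genes cannot be told apart. Slc6a9 shares 1429 bp of its exons (27.8%) with Ccdc24 and 511 bp (9.94%) with Gm17114, both on the opposite strand, and its level followed that of Ccdc24 over the 15 regions (r = 0.995 in AL and 0.99 in PBS, computed on log2 region means of the same libraries). Glra1 shares 141 bp (5.84%) with the antisense gene Gm12236. Slc6a9 values are therefore those of the locus.

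The sequences just upstream of 4 members are shown because these genes had contrasting regional patterns: Slc6a5 was high in medulla, pons and cerebellum and near 0 elsewhere, Glra2 and Glra3 were highest in hypothalamus, and Glrb was abundant in every region. They come from RefSeq promoter windows on GRCm38.p6, where 5 of the 6 members had an entry, and hold only the bases before the annotated start of the gene. Capitals mark each CG dinucleotide.
Slc6a5, chr7:49910049-49910145, plus strand: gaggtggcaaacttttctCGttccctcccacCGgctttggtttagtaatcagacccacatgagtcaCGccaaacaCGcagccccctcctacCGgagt
Glra2, chrX:165327394-165327643, minus strand: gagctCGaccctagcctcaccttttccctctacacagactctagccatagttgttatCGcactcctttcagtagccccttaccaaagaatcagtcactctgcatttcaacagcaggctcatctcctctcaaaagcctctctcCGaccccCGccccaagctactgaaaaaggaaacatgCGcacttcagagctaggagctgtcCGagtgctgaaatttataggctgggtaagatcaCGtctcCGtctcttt
Glra3, chr8:55940168-55940417, plus strand: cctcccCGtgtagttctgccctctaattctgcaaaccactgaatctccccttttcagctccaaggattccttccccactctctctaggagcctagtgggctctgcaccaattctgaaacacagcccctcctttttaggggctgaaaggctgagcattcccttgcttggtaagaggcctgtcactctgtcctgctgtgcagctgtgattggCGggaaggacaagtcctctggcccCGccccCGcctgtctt
Glrb, chr3:80913661-80913910, minus strand: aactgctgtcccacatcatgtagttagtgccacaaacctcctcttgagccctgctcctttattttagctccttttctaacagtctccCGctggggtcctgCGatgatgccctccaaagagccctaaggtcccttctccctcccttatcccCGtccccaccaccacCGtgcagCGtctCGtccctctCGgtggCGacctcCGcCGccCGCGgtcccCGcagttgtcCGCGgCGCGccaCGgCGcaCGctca
The Glrb stretch of 250 bases holds 20 CG dinucleotides, and 17.9% of 32851 RefSeq promoters hold at least as many in the same length. The Glra2 stretch holds 8, which 43.0% of promoters reach, and the Glra3 stretch holds 4, which 62.2% reach. The Slc6a5 stretch has 97 bases and 5 CG dinucleotides, which 24.4% of promoters reach in the first 97 bases of their windows. The Slc6a5 stretch ends at the annotated gene start, so these positions need not be alike. Searched on both strands, GGGCGG occurs in the Glra2, Glra3 and Glrb stretches and in 32.7% of all promoters, and TATAAA occurs in the Glra2 stretch and in 12.4% of all promoters. These counts describe the letters only.

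All values below are CPM, which are counts per M (mega) of the TMM-scaled library size computed from the deposited counts. The depth of a library was between 0.606 M and 32.4 M counts, 8.44 M at the median, and was below 2 M in 6 libraries. The marker lists for cerebellum, olfactory bulb, striatum, thalamus, hypothalamus and choroid plexus each had their highest median in the region of that label. The hippocampus list was highest in posterior hippocampus, with anterior hippocampus at rank 4. The list of cortical excitatory neurons was highest in motor cortex, with visual cortex at rank 2 and entorhinal cortex at rank 4. In anterior hippocampus the thalamus marker Tcf7l2 ranged from 19.4 CPM (YMP mouse 73) to 277 CPM (PBS mouse 72). The part of this in member values there was not tested. The summed CPM of 8 Hox genes, which mark hindbrain position, had a median of 112 in medulla and 82.6 in pons. It had a median of at most 0.125 in each other brain region. 4 of the 15 pons libraries stood apart: the summed CPM of 6 neuron markers was 3434 to 5161 in AL mouse 68, aDR mice 64 and 67 and YMP mouse 77, against 8220 to 10730 in the other 11. The Hox sum was 0.144 to 34.4 in those 4 libraries and 59.2 to 138 in the other 11. In the aDR mouse 67 library, the 10 most abundant genes took 23.4% of the counts, against 5.72% to 7.12% in the other pons libraries. The Hox list was trimmed after its values were seen and is not tested. Levels in AL, aDR and YMP pons include these libraries unless stated, none of which is a PBS library, and the main pons comparisons are also given without them.

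Among the 15 regions, all 6 members differed in the AL libraries and all 6 in the PBS libraries (edgeR quasi-likelihood F test, Benjamini-Hochberg adjusted p under 0.05 over all genes tested). The least of these differences in AL was that of Glrb (adjusted p = 3.31e-14) and in PBS that of Glra2 (adjusted p = 6.71e-09). Nearly every gene differed among regions, with 98.1% of 15324 genes called in AL and 96.1% of 15415 in PBS, so the call itself says little and the order of regions carries the pattern. The order was similar in the 2 cohorts, with a Spearman correlation of region means from 0.868 for Glra3 to 0.989 for Slc6a9 over the 15 regions, each region being the same dissection in other mice.

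**Figure D1:**
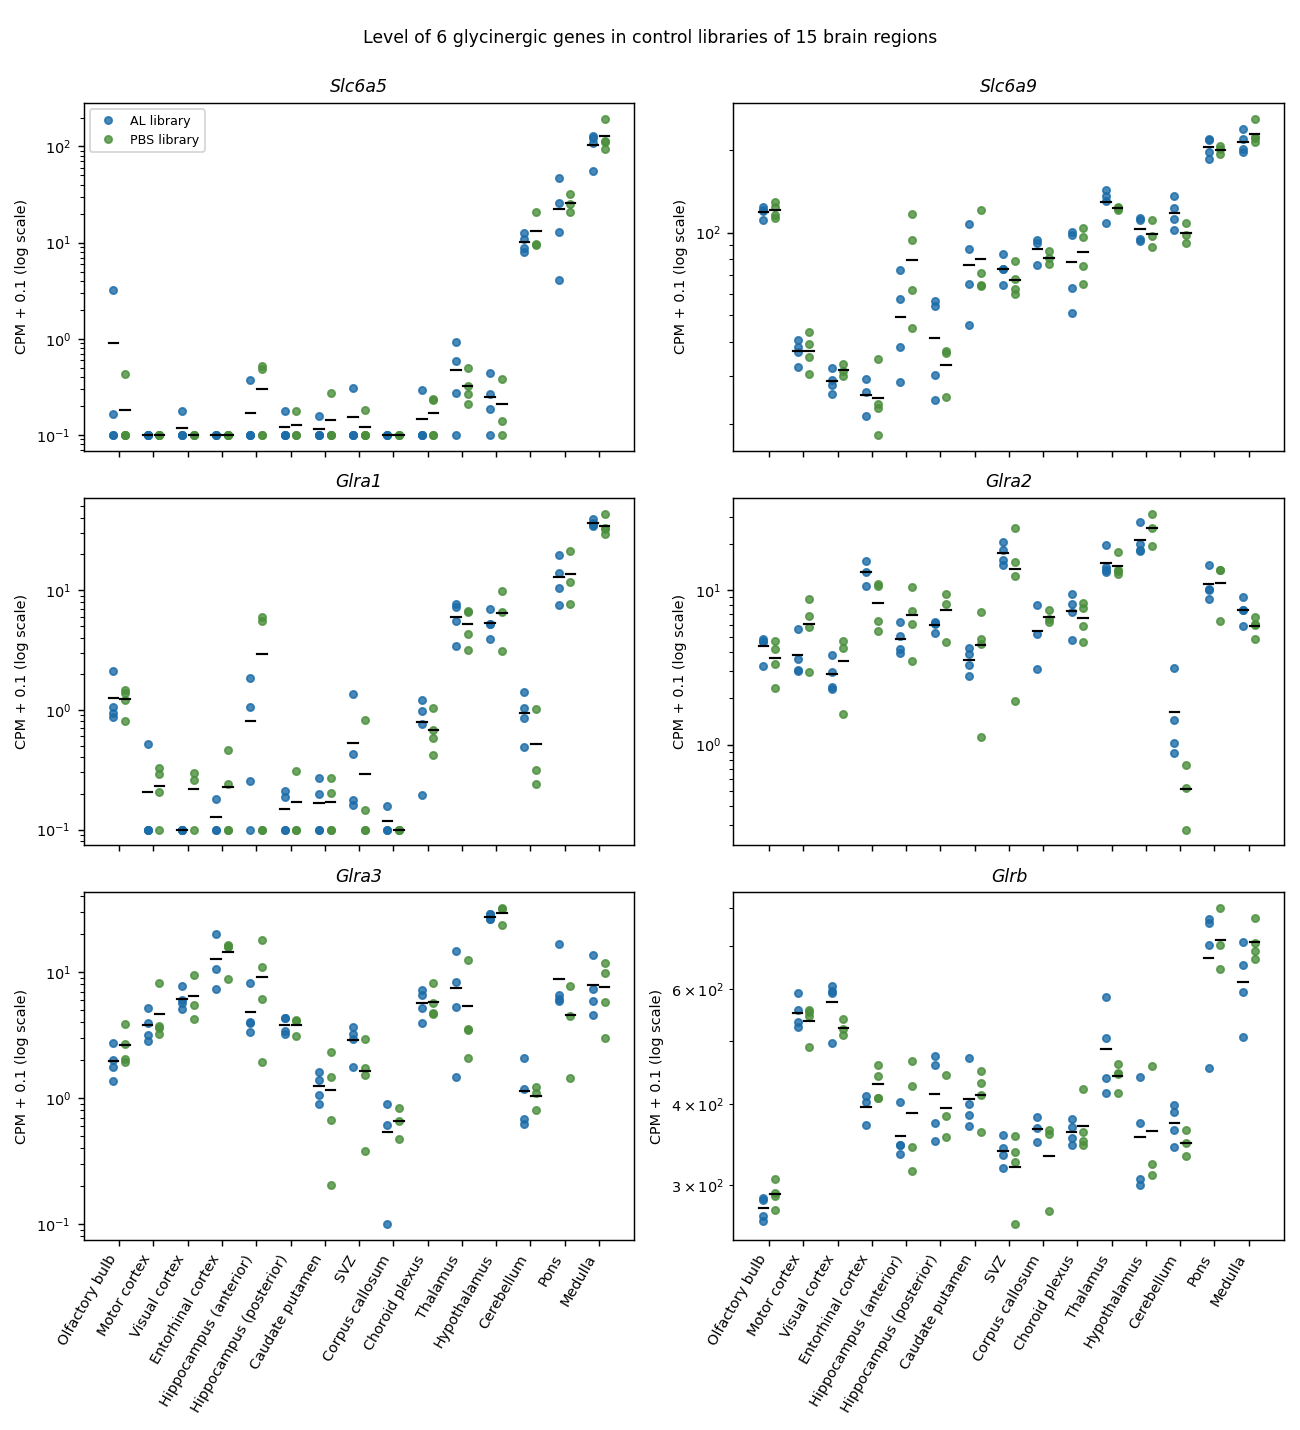
Level of each member (1 panel per gene) in the AL and PBS libraries of the 15 brain regions, as CPM + 0.1 on a log axis, with 1 point per library and a black line at each group mean. Slc6a5 and Glra1 were highest in medulla, Glra3 in hypothalamus, and Glrb lay between 283 and 689 CPM in the control mean of every region.

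Slc6a5, the transporter of glycine-releasing neurons, was high in medulla, lower in pons and cerebellum, and near absent elsewhere. In medulla it reached 122.8, 108.2, 129.9 and 55.84 CPM in AL mice 63, 66, 68 and 69, and 110.5, 115.2, 92.9 and 193.2 in PBS mice 72, 76, 80 and 84. The lowest medulla library lay above the highest control library of any other region. Pons gave 25.79, 46.68, 4.032 and 12.73 CPM in the AL mice and 24.99, 20.62 and 31.63 in PBS mice 76, 80 and 84. The 4.032 belongs to AL mouse 68, one of the libraries that stood apart. Cerebellum, whose Golgi cells use glycine beside GABA, gave 7.91 to 12.6 CPM in AL and 9.38 to 20.7 in PBS, and so overlapped with pons. Over the control libraries, medulla was 4.88 times pons, and cerebellum was 25.9 times the next region, olfactory bulb; these were the 2 gaps without overlap among the 14 steps of the order. Without the pons library of AL mouse 68, medulla was 4.29 times pons. The olfactory bulb mean of 0.440 CPM rested on AL mouse 68, with 3.13 CPM and a Hox sum of 4.56, the highest in that region. Medulla and pons together held 91.6% of the summed region means in AL and 91.7% in PBS. Slc6a5 had 0 counts in every control library of motor cortex (8 libraries), entorhinal cortex (7) and corpus callosum (6). Taking 3 counts over the whole group as the floor, medulla was at least 2800-fold, 2570-fold and 1700-fold higher than these 3 regions. These bounds cover counting error only.

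Slc6a9, the glial transporter, was present in every library, with a graded rather than an all-or-none pattern. Medulla averaged 214 ± 18.7 CPM in AL (SD, n = 4) and 229 ± 20.4 in PBS (SD, n = 4), and pons 204 ± 16.6 (SD, n = 4) and 200 ± 6.64 (SD, n = 3). The AL medulla libraries held 219.1, 197.4, 237.9 and 200.9 CPM and the AL pons libraries 219.4, 216.8, 185.2 and 195.9, so the brainstem regions overlapped. Over the controls, pons was 1.61 times the next region, thalamus (126 ± 10.7 CPM, SD, n = 8), with no overlap. Olfactory bulb (119.9), cerebellum (110.1) and hypothalamus (101.3) followed, and the lowest means were those of motor cortex (37.01), visual cortex (29.8) and entorhinal cortex (25.14). Except for the step below pons, each region overlapped with its neighbour in the order.

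Glra1, the alpha subunit of adult brainstem receptors, followed Slc6a5 in medulla and pons but not in cerebellum. Medulla gave 36.57, 38.87, 35.01 and 33.92 CPM in AL mice 63, 66, 68 and 69 and 32.22, 32.88, 29.16 and 43.47 in PBS mice 72, 76, 80 and 84. Pons gave 13.79, 19.6, 7.344 and 10.41 in the AL mice and 11.57, 7.621 and 21.14 in PBS mice 76, 80 and 84. Medulla was 2.70 times pons over the controls (2.51 without the pons library of AL mouse 68), the sole step of the 14 without overlap. Hypothalamus (5.73 ± 2.21 CPM, SD, n = 7) and thalamus (5.46 ± 1.75, SD, n = 8) came next and did not differ beyond their spread. Cerebellum, which ranked 3 for Slc6a5, held only 0.14 to 1.31 CPM of Glra1. Medulla and pons held 76.3% of the summed region means in AL and 73.7% in PBS. Of the 229 brain libraries, 68 had 0 counts of Glra1 and 132 had 0 counts of Slc6a5.

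Glra2 and Glra3 were highest in hypothalamus. Glra2 gave 19.98, 18.25, 27.82 and 17.98 CPM there in AL mice 63, 66, 68 and 69 and 25.17, 19.2 and 31.37 in PBS mice 72, 80 and 84. SVZ (15.4 ± 6.83, SD, n = 8), thalamus (14.6 ± 2.5, SD, n = 8) and pons (10.95 ± 2.99, SD, n = 7; 10.35 without AL mouse 68) followed, medulla ranked 7 with 6.57 ± 1.29 (SD, n = 8), and cerebellum was lowest with 1.05 ± 0.946 (SD, n = 7). The SVZ mean includes PBS mouse 72, with 1.812 CPM of Glra2 against 12.33 to 25.24 in the other control libraries of SVZ. None of the 14 neighbouring steps of Glra2 was free of overlap. Glra3 gave 26.3, 28.66, 28.62 and 26.11 CPM in AL hypothalamus and 31.75, 23.7 and 31.94 in PBS hypothalamus, 2.09 times entorhinal cortex (13.5 ± 4.69, SD, n = 7) with no overlap. Below that, medulla (7.60), anterior hippocampus (6.92) and pons (6.92, or 5.29 without AL mouse 68) overlapped with their neighbours, and corpus callosum was lowest at 0.496. In pons, Glra3 was highest in 3 of the 4 libraries that stood apart, with 16.7 CPM in AL mouse 68, 14.43 in YMP mouse 77 and 10.88 in aDR mouse 64. The other pons libraries held at most 7.673 CPM. Their part in pons values was not tested beyond leaving them out.

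Glrb, the shared beta subunit, was the flattest of the members: its highest AL region mean was 2.43 times its lowest, and 2.46 times in PBS. Pons gave 757.4, 768.6, 454.2 and 701.1 CPM in AL mice 63, 66, 68 and 69 and 701.1, 799.4 and 643.9 in PBS mice 76, 80 and 84. Medulla gave 709.9, 594.7, 653.7 and 506.9 in the AL mice and 668.4, 686.6, 772.4 and 706.7 in the PBS mice. Visual cortex (551.7 ± 45.6, SD, n = 7) and motor cortex (544.5 ± 30, SD, n = 8) came next, although Glra1 was near 0 there, and olfactory bulb was lowest (283.2 ± 13.4, SD, n = 8). All 14 neighbouring steps overlapped over the controls.

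Tested together, medulla and pons against the other 13 regions, 6 of 6 members were higher in AL and 5 of 6 in PBS, where 35.7% and 32% of all genes were higher. The contrast averages the log2 region terms equally. Slc6a5 ranked 5 of 15324 genes by its log2 difference in AL (9.11, SE 0.310, edgeR quasi-likelihood test, adjusted p = 7.07e-26) and 4 of 15415 in PBS (9.64, SE 0.215). Glra1 ranked 33 in AL (6.18, SE 0.227) and 36 in PBS (5.98, SE 0.295). The log2 difference was 1.68 (SE 0.099) and 1.72 (SE 0.0941) for Slc6a9, and 0.70 (SE 0.0606) and 0.88 (SE 0.0582) for Glrb. Glra3 was higher by 1.14 (SE 0.204) in AL and by 0.72 (SE 0.316, edgeR adjusted p = 0.0436) in PBS, and the PBS call was lost without mouse 76, 80 or 84 (edgeR adjusted p 0.0637 to 0.359). Glra2 was higher by 0.55 (SE 0.126) in AL and differed by 0.46 (SE 0.254, edgeR adjusted p = 0.11) in PBS. On the linear scale the differences were smaller than these log2 values: the mean CPM of medulla and pons was 71.2 times that of the other regions in AL and 71.5 times in PBS for Slc6a5, and 20.9 and 18.2 times for Glra1. For Glra3 the linear direction turned in PBS, with 5.97 CPM in brainstem against 6.51 elsewhere, while AL had 8.24 against 6.03. For Glra2 the linear ratio was 1.13 in AL and 1.03 in PBS. Without the pons library of AL mouse 68, the 6 AL calls remained and the log2 difference was 9.28 for Slc6a5, 6.27 for Glra1, 1.70 for Slc6a9, 0.89 for Glra3, 0.77 for Glrb and 0.47 for Glra2.

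Medulla differed from pons for Slc6a5 and Glra1 in AL and for Slc6a5 in PBS, while 7.73% of all genes were called in AL and 3.87% in PBS. Slc6a5 was higher in medulla by 2.19 on the log2 scale in AL (SE 0.428, edgeR adjusted p = 0.00073) and by 2.29 in PBS (SE 0.32, edgeR adjusted p = 2.08e-05). Glra1 was higher by 1.48 in AL (SE 0.37, edgeR adjusted p = 0.00862), and its PBS difference was 1.30 (SE 0.514, edgeR adjusted p = 0.182). Glra2 pointed the other way, at -0.57 (SE 0.234) in AL and -0.99 (SE 0.477) in PBS, without passing the adjusted threshold. Without the pons library of AL mouse 68, Slc6a5 differed by 1.86 (edgeR adjusted p = 0.00236) and Glra1 by 1.30 (edgeR adjusted p = 0.0348). The Glra1 call was lost without AL mouse 69 (1.42, edgeR adjusted p = 0.0933), and DESeq2 gave Slc6a5 2.23 in AL with an adjusted p of 0.333.

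**Figure D2:**
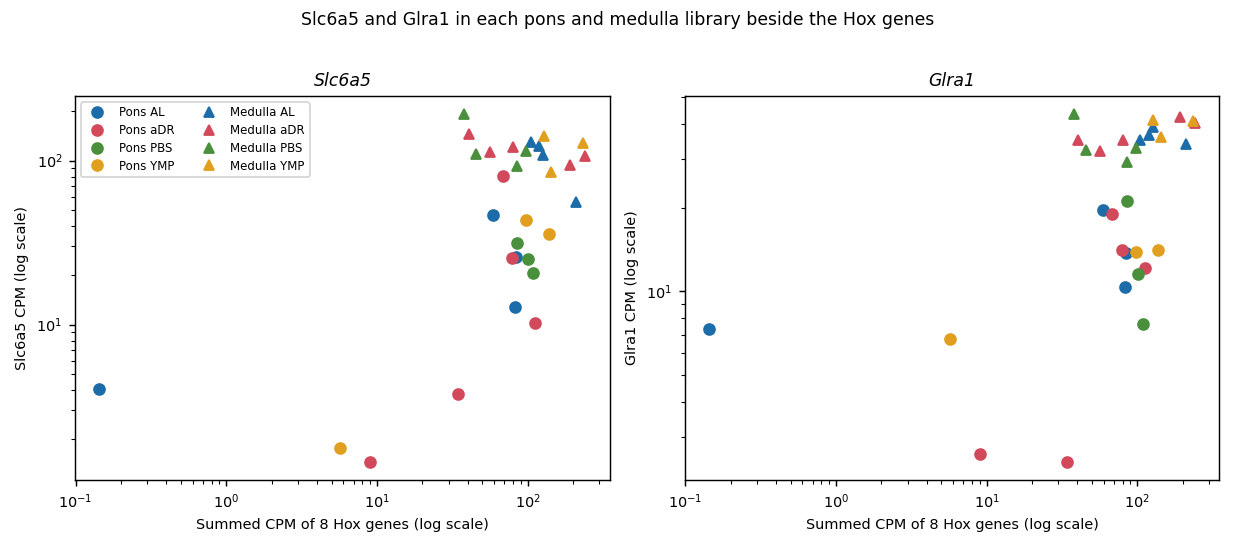
Slc6a5 and Glra1 in every medulla and pons library, in CPM on a log axis, against the summed CPM of 8 Hox genes, also on a log axis, with circles for pons, triangles for medulla and colours for treatment groups. The 4 pons libraries that stood apart had Hox sums from 0.144 to 34.4 and Slc6a5 from 1.45 to 4.03 CPM.

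In the pons libraries of treated mice, Slc6a5 was 10.28, 80.91, 1.45, 25.47 and 3.792 CPM in aDR mice 61, 62, 64, 65 and 67 and 35.86, 1.774 and 43.27 in YMP mice 73, 77 and 81. The lowest values, 1.45, 1.774 and 3.792, were those of libraries that stood apart by their neuron and Hox sums. Glra1 showed the same split, with 2.611 and 2.437 CPM in aDR mice 64 and 67 against 12.12 to 18.91 in the other 3. Medulla, where no library had a Hox sum under 38, spanned 55.84 to 193.2 CPM of Slc6a5 over its 16 libraries. The highest was that of PBS mouse 84, in which Ttr, a choroid plexus gene, stood at 293 CPM against at most 18.3 in the other medulla libraries; the part of tissue carry-over in that value was not tested.

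Each member's highest region in AL was then tested in PBS, in mice that had not chosen it. All 6 were higher there than in the mean of the other 14 regions. Slc6a5 was higher in PBS medulla by 10.17 on the log2 scale (SE 0.199), Glra1 by 6.25 (SE 0.295) and Slc6a9 by 1.70 (SE 0.114), and 30.2% of all genes were higher in medulla. In PBS hypothalamus, Glra3 was higher by 3.14 (SE 0.302, edgeR adjusted p = 1.91e-11) and Glra2 by 2.18 (SE 0.28, edgeR adjusted p = 2.24e-08), against 23.8% of all genes. In PBS pons, Glrb was higher by 0.83 (SE 0.0838, edgeR adjusted p = 1.05e-10), against 21.8% of all genes. Leaving out each PBS mouse in turn kept the 6 calls.

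The alpha subunit make-up was compared per length, as CPM per kb of the union of exons, and each subunit was taken as a percent of the sum of Glra1, Glra2 and Glra3. In medulla Glra1 made up 82.5% ± 2.31 in AL (SD, n = 4) and 84.0% ± 4.71 in PBS (SD, n = 4), with Glra2 at 12.9% and 11.1% and Glra3 at 4.58% and 4.99%. In pons the Glra1 share was 53.8% ± 15.8 in AL (SD, n = 4; 32.1% in mouse 68, and 61.0% ± 8.02 without it, SD, n = 3) and 57.7% ± 6.64 in PBS (SD, n = 3), and Glra2 held 36.2% and 37.7%. Medulla and pons did not overlap in this share, since the lowest medulla library was at 79.9% and the highest control pons library at 68.1%. In thalamus Glra2 led with 60.2% ± 12.6 in AL and 63.1% ± 7.25 in PBS (SD, n = 4 each), and Glra1 held 30.4% and 28.9%. In hypothalamus Glra2 held 56.1% ± 5.81 in AL (SD, n = 4) and 58.0% ± 4.70 in PBS (SD, n = 3), Glra3 25.4% and 23.2%, and Glra1 18.5% and 18.8%. In SVZ Glra2 made up 92.2% in AL and 93.4% in PBS, and in corpus callosum 95.5% and 97.1%. Visual cortex was split between Glra2 (56.9% and 57.7%) and Glra3 (43.1% and 40.0%). Cerebellum rested on 12 to 48 counts of the 3 genes per library and its shares were not resolved.

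**Figure D3:**
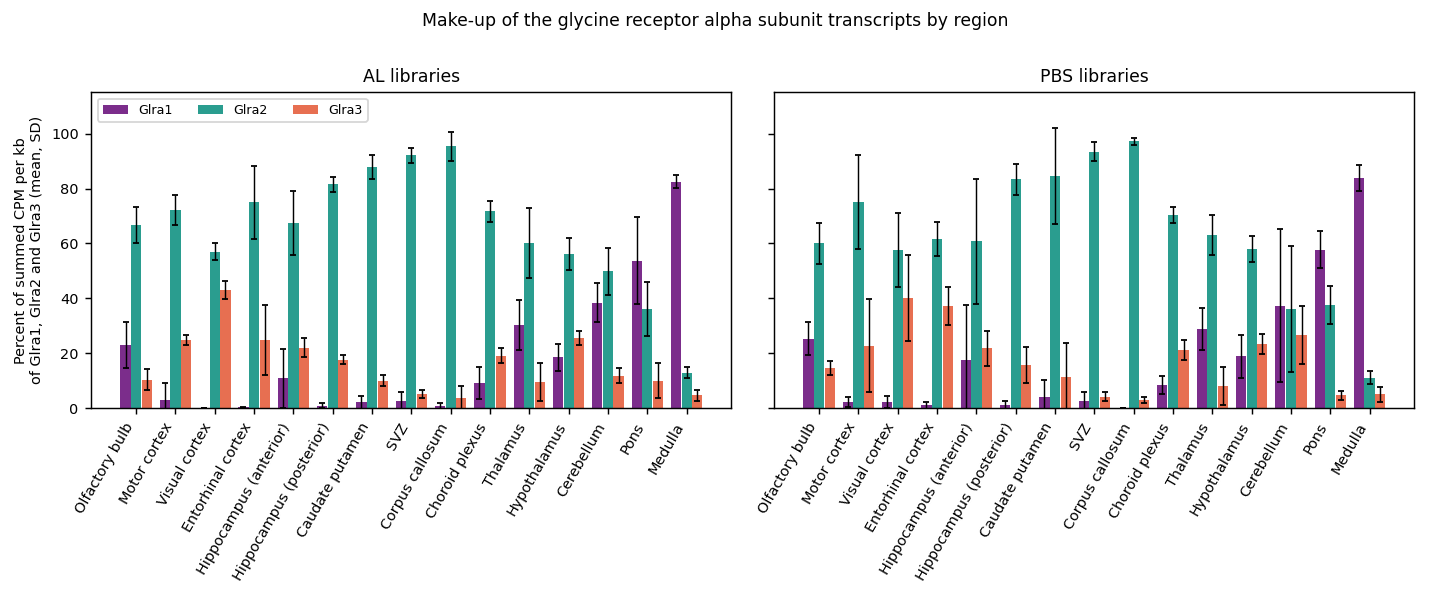
Share of each alpha subunit in the summed CPM per kb of Glra1, Glra2 and Glra3, as bars of the mean with SD by region, for AL libraries in the left panel and PBS libraries in the right. Glra1 took 82.5% in AL medulla and 53.8% in AL pons, and Glra2 took 92.2% in AL SVZ.

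These shares depend on which length stands for each gene, since Glra3 has 9208 bp of exons and only 1440 bp of coding sequence, while Glra1 has 2414 and 1371. Per coding length, Glra1 in medulla was 71.2% in AL and 72.4% in PBS and remained first. In hypothalamus the order of the first 2 changed: Glra3 was 49.9% and 46.8% and Glra2 40.1% and 42.5%. Visual cortex also turned, with Glra3 at 67.5% and 63.3% and Glra2 at 32.5% and 35.5%, and so did PBS entorhinal cortex, where Glra3 was first with 61.8% per coding length. In AL thalamus Glra3 (22.8%) then stood above Glra1 (21.2%) and below Glra2, and in AL pons Glra3 reached 25.2%. Whether Glra2 or Glra3 leads in hypothalamus, visual cortex and PBS entorhinal cortex is therefore not settled by these counts.

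Glrb exceeded the 3 alpha subunits together in the mean of every brain region and group, by a ratio that varied widely. Per kb of exons, the ratio of Glrb to the summed alphas was 7.29 ± 0.779 in AL medulla (SD, n = 4) and 9.12 ± 1.42 in PBS medulla (SD, n = 4), and 6.51 ± 1.39 (SD, n = 4) and 5.87 ± 1.87 (SD, n = 3) in hypothalamus. It was 13.1 ± 1.71 and 13.5 ± 2.67 in thalamus (SD, n = 4 each), and 77.5 ± 20.2 and 49.1 ± 11.9 in motor cortex (SD, n = 4 each). The per-kb ratio of Slc6a9 to Slc6a5 was 3.17 ± 1.25 in AL medulla and 2.73 ± 0.937 in PBS medulla (SD, n = 4 each). In cerebellum it was 16.8 ± 2.10 (SD, n = 4) and 11.8 ± 3.88 (SD, n = 3). These are ratios of RNA and not of protein. Like the shares above, they depend on the length chosen and are given for the union of exons alone. Glrb has 4655 bp of exons and 1488 bp of coding sequence.

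Within regions, treatment gave no call for any member. In the diet cohort 0 of 65 tested pairs of member and region were called by edgeR at an adjusted p under 0.05, against 0.0525% of all gene and region tests, and 3 of 65 (4.62%) had an unadjusted p under 0.05, against 6.24% of all tests. In the plasma cohort 0 of 64 pairs were called, against 0.0127% of all tests, and 7 of 64 (10.9%) had an unadjusted p under 0.05, against 6.11%. Alternative fits with DESeq2 also gave 0 member calls within regions in each cohort. The remaining pairs, of 90 in each cohort, fell under the filter on low counts, most of them pairs of Slc6a5 and Glra1, which could be tested in 3 and 5 regions of each cohort.

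**Figure D4:**
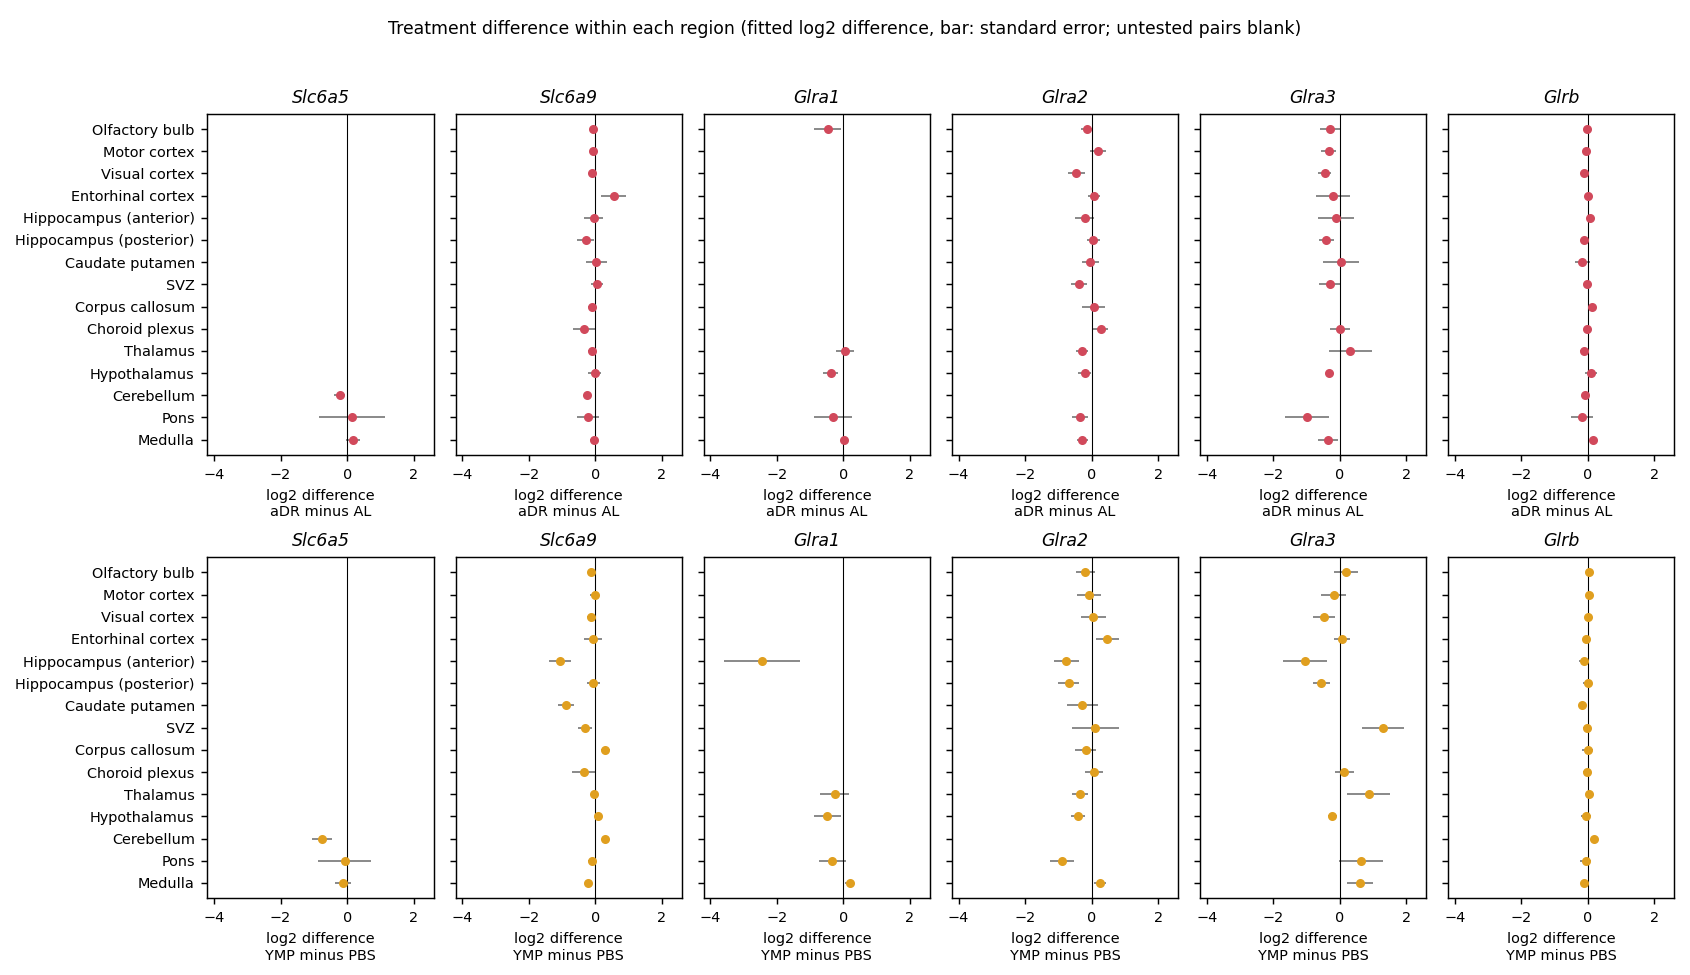
Log2 difference of treated against control libraries for each member in each tested region, with bars of 1 SE, for diet in the upper row and plasma in the lower. No point passed the adjusted threshold, and the pairs with the smallest unadjusted p are those named in the text.

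The 5 diet pairs with the smallest unadjusted p were Glra3 in hypothalamus, Slc6a9 in cerebellum, Glra3 and Glra2 in visual cortex and Glra1 in hypothalamus, and aDR was the lower group in all 5. Hypothalamic Glra3 was 26.3, 28.66, 28.62 and 26.11 CPM in AL mice 63, 66, 68 and 69 and 22.56, 18.57, 22.16 and 24.97 in aDR mice 62, 64, 65 and 67. The groups did not overlap, the log2 difference was -0.31 (SE 0.102), the unadjusted p was 0.012 and the edgeR adjusted p 0.986. The share of all genes without overlap in hypothalamus is not given here, and 639 of 13804 genes had an unadjusted edgeR p under 0.05 there. Cerebellar Slc6a9 differed by -0.24 (SE 0.0849, edgeR adjusted p = 0.264), and Glra3 in visual cortex by -0.46 (SE 0.192, edgeR adjusted p = 0.463), both with overlapping groups.

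In the plasma cohort, 3 of the 5 pairs with the smallest unadjusted p were Slc6a9. In caudate putamen Slc6a9 was 63.88, 121.3, 71.06 and 64.37 CPM in PBS mice 72, 76, 80 and 84 and 52.75, 38.68 and 39.73 in YMP mice 73, 77 and 81. All 3 YMP libraries lay below all 4 PBS libraries, with a log2 difference of -0.88 (SE 0.251, unadjusted p = 0.00652, edgeR adjusted p = 0.474). The share of all genes without overlap in caudate putamen is not given here, and 1379 of 13539 genes had an unadjusted edgeR p under 0.05 there. The summed CPM of 5 oligodendrocyte markers in these libraries was 15000 to 36100 in PBS and 9600 to 15500 in YMP. In anterior hippocampus Slc6a9 was 117, 45, 61.8 and 93.52 CPM in the PBS mice and 33.6, 31.51 and 51.55 in the YMP mice, a difference of -1.06 (SE 0.324, edgeR adjusted p = 0.683) with overlap. There the oligodendrocyte sum was 7230 to 13700 in PBS and 6350 to 7110 in YMP, and the summed thalamic markers were 427, 149, 360 and 441 CPM in PBS mice 72, 76, 80 and 84 against 124, 188 and 231 in YMP mice 73, 77 and 81. In cerebellum the sign was opposite, with Slc6a9 at 91.96, 97.75 and 108.3 CPM in PBS mice 72, 80 and 84 and 106.1, 131.9 and 123.9 in the YMP mice (0.29, SE 0.0988, edgeR adjusted p = 0.442), and the oligodendrocyte sum was 6050 to 7960 in PBS and 6880 to 11900 in YMP. The PBS and YMP ranges of the oligodendrocyte sum overlapped in caudate putamen and cerebellum and did not overlap in anterior hippocampus. The part of this sum in the Slc6a9 values was not tested, and astrocyte and neuron sums are not given for these libraries. The other 2 pairs were also in cerebellum: Glrb was 332.9, 348.3 and 364.5 CPM in PBS and 386.2, 402 and 396.1 in YMP (0.19, SE 0.0644, edgeR adjusted p = 0.442), and Slc6a5 was 9.38, 9.55 and 20.69 in PBS and 6.767, 8.605 and 8.1 in YMP (-0.76, SE 0.301, edgeR adjusted p = 0.456), both without overlap. The share of all genes without overlap in cerebellum is not given here either, and 1402 of 13558 genes had an unadjusted edgeR p under 0.05 there.

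Across the brain regions, with 1 value per mouse and gene (the coefficient of that mouse in a linear model of log2 CPM with region as the other term), 1 of 6 members passed the test for diet. Glra3 fell by 0.27 on the log2 scale in aDR mice (SE 0.0573, limma adjusted p = 0.0451), and 0.762% of 15616 genes were called lower. The mouse values of Glra3 were 0.152, 0.158, 0.191 and 0.0947 in AL mice 63, 66, 68 and 69 and -0.0557, -0.22, -0.063, -0.119 and -0.139 in aDR mice 61, 62, 64, 65 and 67. All 5 aDR mice lay below all 4 AL mice, a separation that 8.3% of genes had in either direction. The log2 difference was negative in 10 of the 13 regions where Glra3 could be tested, from -0.98 in pons to 0.31 in thalamus. In pons the mean of Glra3 was 8.75 CPM in AL and 4.27 in aDR, and without the 3 libraries that stood apart it was 6.10 ± 0.342 in AL and 3.40 ± 1.35 in aDR (SD, n = 3 each). Markers of other cells moved in the same test: 2 of 3 endothelial markers were called lower in aDR (limma, list median -0.26), as was 1 of 4 microglial markers (median -0.04). No gene of the other marker lists was called. The largest list median was that of the 4 blood markers (0.88). Taking each mouse's median over regions, the summed endothelial markers were 81.2 to 98.1 CPM in AL mice and 69.8 to 79.5 in aDR mice. The microglial sum was 231 to 258 and 223 to 266, and the blood sum 4.31 to 6.52 and 3.88 to 16.8. Their part in the Glra3 difference was not tested. The call was close to the threshold: it was lost when any 1 of the 9 mice was left out (log2 difference -0.29 to -0.25, limma adjusted p 0.0564 to 0.145). Without the pons libraries that stood apart, 3 of which are of this cohort, the difference was -0.21 (limma adjusted p = 0.14). With mouse as a replicate block in a voom fit of all libraries, the difference was -0.35 (adjusted p = 0.0746). Glra2 differed by -0.17 (SE 0.0756, limma adjusted p = 0.293), and the other 4 members by -0.12 to -0.05 with limma adjusted p from 0.609 to 0.885.

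**Figure D5:**
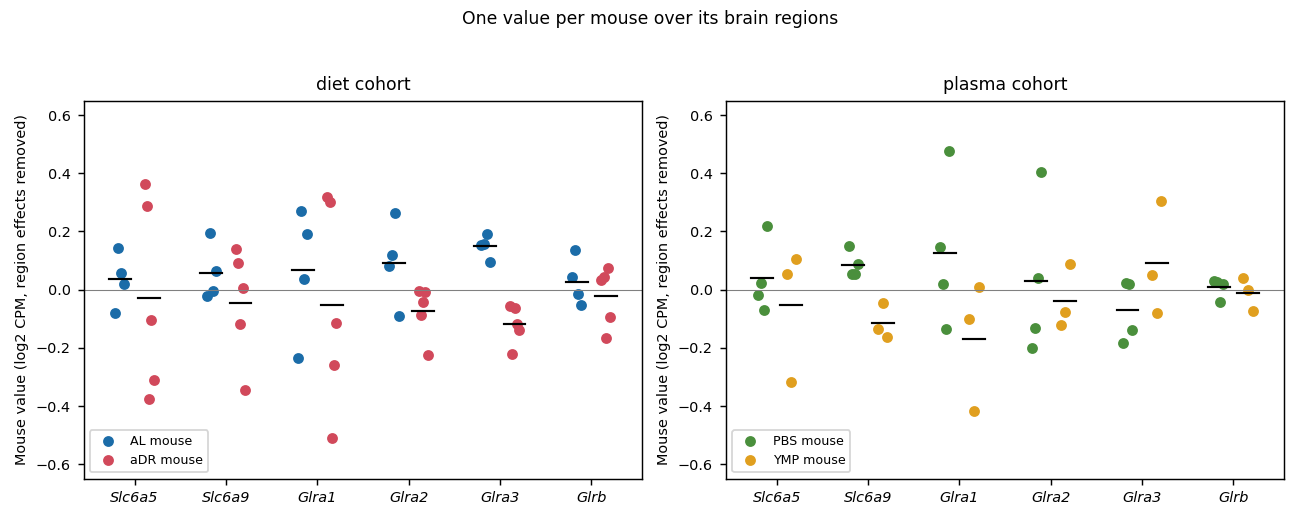
Mouse values (log2 CPM with region effects removed) of the 6 members in the diet cohort on the left and the plasma cohort on the right, with 1 point per mouse and a line at each group mean. Glra3 in the diet cohort and Slc6a9 in the plasma cohort are the 2 members whose treated and control mice did not overlap.

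For plasma, 0 of 6 members were called by limma, as were 0% of 15768 genes, and 0 by the voom fit with mouse as a block. Slc6a9 had the smallest unadjusted limma p of the 6 members, at rank 59 of 15768 genes. Its mouse values were 0.151, 0.0521, 0.0526 and 0.0898 in PBS mice 72, 76, 80 and 84 and -0.136, -0.0466 and -0.163 in YMP mice 73, 77 and 81. The groups did not overlap, as for 10% of genes, and the log2 difference was -0.20 (SE 0.0426, limma unadjusted p = 0.00121 and adjusted p = 0.301). Over the alternatives it ranged from -0.24 to -0.18 and the adjusted p from 0.109 to 0.773. In this test no gene of any marker list was called by limma. The median log2 difference was -0.15 for the 5 oligodendrocyte markers and -0.052 for the 6 astrocyte markers. It was larger in size for the 7 choroid plexus markers (-1.2), the 2 tested hepatocyte markers (-1.1) and the 4 blood markers (-0.33). The same held for the 1 marker of subcortical excitatory neurons (-0.31) and the 4 markers of cortical excitatory neurons (0.25). The olfactory bulb markers (-0.22) and the thalamus markers (-0.18) also had larger medians in size. Their part in the Slc6a9 values was not tested. A difference in treatment effect among regions was tested directly, by an edgeR F test on the interaction of region and treatment: 0 of 6 members were called for diet, against 0.0128% of all genes, and 0 of 6 for plasma, against 0.824%. The lowest value was that of Slc6a9 in plasma (unadjusted p = 0.00461, edgeR adjusted p = 0.215). For diet the lowest unadjusted p of this F test was 0.188, for Slc6a5.

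The rest of the pathway was described by lists chosen by name, in the contrast of medulla and pons against the other regions, where the median over all genes was near 0 (-0.0016 in AL and -0.0069 in PBS). Of all genes, 35.7% were called higher and 33.9% lower in AL, and 32% and 30.2% in PBS, and each count below is to be read against these shares. Of 9 genes of glycine synthesis and cleavage, 4 were higher and 3 lower in AL, and 4 and 2 in PBS, with list medians of 0.04 and 0.05. Gldc, the decarboxylase of the glycine cleavage system, was lower by 2.83 in AL and 3.03 in PBS on the log2 scale, which are 4.51 against 37.1 CPM and 4.31 against 39.2 CPM. Shmt1, which interconverts serine and glycine, differed by -0.80 and -0.70, and Psat1, an enzyme of serine synthesis, by 0.65 and 0.64. Of 8 genes of the inhibitory synapse scaffold and vesicle loading, 2 were higher and 6 lower in AL and 1 and 6 in PBS, with medians of -0.31 and -0.36. Slitrk3 (-0.98 and -1.04) and Insyn1 (-0.73 and -0.97), proteins of inhibitory postsynapses, were lower. Chosen after their values were seen, gephyrin itself (Gphn) was lower by little (-0.13 and -0.12, both called), and Slc32a1 was higher in AL by 0.63 (edgeR adjusted p = 1.38e-04) and differed by 0.21 in PBS (edgeR adjusted p = 0.339).

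Of 6 chloride gradient genes, 2 were higher and 1 lower in each cohort, where 35.7% and 33.9% of all genes were in AL and 32% and 30.2% in PBS, with medians of -0.06 in both. Slc12a2, the importer NKCC1, was higher by 0.95 and 0.87, and the kinase Wnk1 by 0.43 and 0.44, while the channel Clcn2 differed by -0.24 and -0.26. Of 19 GABA genes, 4 were higher and 10 lower in AL and 5 and 11 in PBS, with medians of -0.28 and -0.40. The receptor subunit genes Gabrd (-4.09 and -3.50) and Gabra4 (-2.36 and -2.97) were lower. Gabra6 was called higher on the equally weighted log2 scale (3.07 and 5.70), but its mean CPM was lower in brainstem (1.2 against 33.4 in AL and 2.94 against 39.1 in PBS), and the other regions include cerebellum, where it is a granule cell gene. The Gabra6 call was lost in AL without mouse 66, where no difference could be estimated (SE 1280), and in PBS without mouse 80 (5.53, edgeR adjusted p = 0.0536). Of 11 genes of the NMDA receptor and its co-agonists, 6 were higher and 5 lower in AL and 4 and 5 in PBS, with medians of 0.17 and 0.03. Dao, the D-amino acid oxidase, was higher by 5.30 and 6.26 on the equally weighted log2 scale, but its mean CPM was 2.24 against 1.2 in AL and 4.38 against 1.52 in PBS. Higher too was the subunit gene Grin3b (2.03 and 1.97), while Grin2b was lower (-2.39 and -2.50). Of 7 other amino acid transporters, 6 could be tested, 3 were higher and 3 lower in each cohort, with medians of 0.08 and 0.03, among them Slc38a5 (0.71 and 0.90), Slc38a2 (0.64 and 0.79) and Slc7a8 (-1.08 and -1.02). Glra4, the fourth alpha subunit gene, was low, with a highest region median of 1.31 CPM in hypothalamus and 1.03 in olfactory bulb, and was not called. In the mouse values, 0 genes of these lists were called for plasma and 1 for diet: Gabra2, named after its value was seen, fell by 0.32 in aDR (SE 0.0475, limma adjusted p = 0.0119).

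The genes most alike each member were found by the smaller of the AL and PBS Pearson correlations of log2 region means over the 15 regions, among 15218 genes. For Slc6a5 they were Kctd9 (0.943), Esyt1 (0.931), Hsdl2 (0.92), S100b (0.918) and Gclm (0.917), and for Glra1 Capza1 (0.941), Ttc39aos1 (0.938), Akr1b10 (0.931), Uqcc1 (0.931) and Acyp2 (0.93). For Slc6a9 they were the overlapping gene Ccdc24 (0.99), Cyp27a1 (0.935), Hibadh (0.934), G6pdx (0.921) and Rhobtb3 (0.92). For Glra2 they were Zcchc12 (0.895), Fads2 (0.886), Timp2 (0.858), Tafa5 (0.851) and Prmt2 (0.85), for Glra3 Tsr2 (0.906), Gnl3l (0.866), Pnma3 (0.865), Atp4a (0.864) and Atxn10 (0.855), and for Glrb Mapk9 (0.95), Rell2 (0.917), Fchsd1 (0.916), Gdi2 (0.915) and Dexi (0.914). The points share libraries and tissue make-up, so these values only describe likeness over the dissected regions.

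Liver, sequenced in the diet cohort alone, had 0 counts of Slc6a5, Glra1 and Glrb in all 9 libraries, 1 count of Glra2 and 10 of Glra3. Slc6a9 had 2220 counts there. It was 21.3, 24.4, 23.3 and 18.3 CPM in AL mice 63, 66, 68 and 69 and 16, 14.9, 23.3, 24.8 and 96.3 in DR mice 61, 62, 64, 65 and 67. The DR mouse 67 library stood above the other 8, and Ccdc24, which shares exons with Slc6a9, was also highest in it, at 48.9 CPM against 8.81 to 19.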

How the data were processed

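The authors deposited 1 table of raw counts, with a row per gene and a column for each of 238 libraries. Per the labels' protocols, RNA came from homogenised tissue and libraries were unstranded (Smart-Seq2, Nextera XT). The submitters' processing notes name GRCm38, Trim Galore 0.3.7, STAR 2.5.3a and DESeq2. The counting program and its annotation are not given in the sources used here.

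From these counts, CPM and log2 CPM (prior count 2) were computed with TMM scaling. Regions and treatments were tested with edgeR 4.0.16 (quasi-likelihood, with filterByExpr at its minimum of 10 counts and a total of 15) and mouse values with limma 3.58.1 in R 4.3.3, with Benjamini-Hochberg adjustment over all genes tested. SE is the log2 difference divided by the square root of its F. DESeq2 1.42.0 served as an alternative. Fits of region, treatment and mouse values were also run on simulated counts, with independent libraries and no effect of the mouse. That setting is simpler than these data, and no result here rests on it.

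Libraries with the same mouse number were taken to come from 1 animal, by the number in the sample titles. Deviations from group means correlated at 0.04 within a mouse and -0.0049 between mice in the diet cohort, and at 0.072 and -0.012 in the plasma cohort. Values this near 0 cannot show a shared origin. The number pairs no treatments. The labels name no batch. Nothing else says that libraries of a group were separate beyond the mouse number. Members, lists and tests were chosen with earlier results of these data known. Named beside the members are the 5 member and region pairs with the smallest unadjusted p in each cohort, the 3 genes per list with the largest log2 difference among those called alike in AL and PBS, and the 5 most alike genes per member. A gene that this rule names is not reported here.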

Additional observations from a re-analysis of the deposited data

Results flagged for a closer look

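In 186 groups of 4 or 5 samples, each a member in 1 region and treatment group, in liver or in the mouse values, 22 (11.8%) held a sample whose distance to its neighbour passed Dixon's 95% limit, where chance gives about 5%. Low counts are common among them, and no explanation was tested.

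Slc6a5 in choroid plexus was 4.39 CPM in aDR mouse 61 against 0 to 0.898 in the others of its group. Slc6a9 was 121 CPM in caudate putamen of PBS mouse 76 against 63.9 to 71.1, and 96.3 in liver of DR mouse 67 against 14.9 to 24.8. Glra1 was 2.03 CPM in olfactory bulb of AL mouse 68 against 0.769 to 0.955.

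Glra2 was 3.14 CPM in olfactory bulb of AL mouse 69 against 4.55 to 4.73, and 5.17 in posterior hippocampus of AL mouse 68 against 6 to 6.13. In thalamus Glra2 was 19.5 CPM in AL mouse 68 against 13.1 to 14.1 and 17.5 in PBS mouse 84 against 12.7 to 13.4. In pons it was 12.2 CPM in aDR mouse 67 against 6.75 to 8.27, in a library that stood apart.

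Glra3 was 16.7 CPM in pons of AL mouse 68 against 5.82 to 6.48, also in a library that stood apart. In the thalamus of PBS mouse 76 it was 12.3 CPM against 1.99 to 3.46. PBS mouse 72 had 8.03 CPM in motor cortex against 3.12 to 3.63 and 8.75 in entorhinal cortex against 15.6 to 16.4. Glra3 was 0.82 CPM in olfactory bulb of aDR mouse 67 against 1.72 to 2.05, 7.94 in visual cortex of aDR mouse 64 against 4.05 to 4.85, and 8.05 in anterior hippocampus of AL mouse 69 against 3.25 to 3.9.

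Glrb was 174 CPM in caudate putamen of aDR mouse 64 against 376 to 430, and 442 in posterior hippocampus of aDR mouse 67 against 347 to 372. It was 489 CPM in motor cortex of PBS mouse 80 against 547 to 558, 496 in visual cortex of AL mouse 69 against 592 to 607, and 403 in anterior hippocampus of AL mouse 66 against 335 to 346. The Glrb mouse value of PBS mouse 80 was -0.0432 against 0.0206 to 0.0307 in the other PBS mice.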

How the results depend on the processing

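Over 830 alternative values of 88 results on single members, 769 kept their direction and their side of the threshold or moved by less than the spread, 21 lost a call, 3 gained one, 22 moved and 15 changed sign. The cause was not tested unless stated. Slc6a5, Slc6a9, Glra1 and Glrb kept their brainstem calls in both cohorts under every alternative run, as did each member in its highest region in PBS. With mouse as a replicate block, the region counts were those of the report, 6 of 6 for the brainstem contrast in AL and 5 of 6 in PBS. In the voom fit with this block, 0 members were called for diet.

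Of members called between medulla and pons in AL, DESeq2 gave 1, and leaving out each mouse gave 1 to 2. With treated libraries added, PBS gave 2. For the mouse values of diet, 0 members were called without the filter on low counts, with a prior count of 0.5, and without the 4 pons libraries that stood apart (chosen after seeing the data), and in every fit that left out 1 mouse. The Glra3 call in the PBS brainstem contrast was also lost with DESeq2 (0.68, adjusted p = 0.0625), without the filter (0.70, edgeR adjusted p = 0.0578) and without libraries under 2 M counts (0.70, edgeR adjusted p = 0.0518), the latter 2 testing other genes or fewer samples.

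No value that changed sign was called, and their smallest adjusted p was 0.53. Between medulla and pons in AL, leaving out each mouse gave Glra3 -0.68 to 0.49 and Slc6a9 -0.042 to 0.14. There, Glra3 was 0.11 and Glrb 0.056 with treated libraries added, and Glra3 was 0.32 without the pons libraries that stood apart. In PBS, Glrb ranged from -0.096 to 0.023 with each mouse left out. In mouse values with each mouse left out, Slc6a5 ranged from -0.16 to 0.023 for diet, and for plasma Slc6a5 from -0.17 to 0.032, Glra2 from -0.14 to 0.055 and Glrb from -0.040 to 0.0086. With voom and the mouse block, Slc6a5 was 0.0054 for diet, and Glra1 0.021 and Glra2 0.0014 for plasma. Gabra6 in the AL brainstem contrast ranged from -0.63 to 3.83 with each mouse left out; the lowest, without mouse 66, had an SE of 1280 and could not be estimated.

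The depth limits the low members most: 170 of 229 brain libraries held at most 3 counts of Slc6a5 and 123 at most 3 of Glra1, and treatment was tested for them in 3 and 5 regions of each cohort, where they passed the filter.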

Other observations

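The alpha subunit make-up of treated mice gave values near those of the controls in medulla and hypothalamus. Glra1 made up 85.3% ± 2.43 of the summed per-kb level in aDR medulla (SD, n = 5) and 82.9% ± 0.949 in YMP medulla (SD, n = 3). In hypothalamus Glra2 held 58.0% ± 7.02 in aDR (SD, n = 4) and 56.7% ± 4.33 in YMP (SD, n = 3). In pons the Glra1 share was 50.1% ± 26.2 in aDR (SD, n = 5) and 62.8% ± 20.1 in YMP (SD, n = 3), and both groups include libraries that stood apart. Without these it was 69.2% ± 2.88 in aDR (SD, n = 3) and 70.9% and 77.6% in the 2 remaining YMP libraries. These differences were not tested.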
